A study of Mus musculus with 34 samples.

Results

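Chemokines are small secreted proteins that guide leukocytes, and their receptors are G protein-coupled receptors on the cells that migrate. The genes described here were those with symbols of the Ccl, Cxcl, Ccr and Cxcr series, together with *Cx3cl1*, *Cx3cr1*, *Xcl1*, *Xcr1*, *Ccrl2* and the atypical receptors *Ackr1* to *Ackr4*. The rule took 62 of the 23509 genes in the count tables, comprising 39 ligands, 18 receptors and 5 atypical receptors. The tables hold *Ackr1* under its older symbol *Darc*. The rule used no measured value.

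Kidney polyadenylated RNA was sequenced from 34 C57BL6 mice at postnatal day 28 (P28). *Pkd2*-KO mice carry floxed *Pkd2* alleles deleted by a Cre driven from the *Pkhd1* promoter, which is active in kidney tubules including collecting ducts, and serve as an aggressive model of autosomal dominant polycystic kidney disease. The labels spell this genotype Pdk2KO. They received PBS (n = 11) or 20 mg per kg RGLS4326 (n = 11) under the skin on P10, P11, P12 and P19. The numbers of mice follow the labels, whereas the study's description of its sequencing gives fewer PBS mice, and which mice those were is not given in the sources used here. The agent, RGLS4326, is an anti-miR of modified nucleotides built to pair with the seed of the microRNA miR-17. Untreated non-transgenic mice (UNT, n = 12, genotype given as wildtype) were neither injected nor mutant, so genotype and injection cannot be told apart between PBS and UNT. A control oligonucleotide was not analysed here, so the miR-17 sequence and exposure to an oligonucleotide cannot be told apart between RGLS4326 and PBS.

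In the kidney, chemokines are made by injured tubule cells, by resident and recruited macrophages, by endothelium and by stromal cells. Inflammatory ligands of the CC class mostly draw monocytes, macrophages and T cells through receptors such as *Ccr1* and *Ccr2*. Ligands of the CXC class that bind *Cxcr2* draw neutrophils. *Cxcl12* acts through *Cxcr4* in development and in retaining cells, and atypical receptors bind chemokines without the usual G protein signal. In whole kidney, fewer cells of a type and less RNA per cell cannot be told apart.

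The targeted gene was read first. *Pkd2*, which encodes polycystin-2, lay between 220 and 338 CPM (read counts scaled to library size) in UNT mice and between 98.0 and 215 CPM in PBS mice, so these groups did not overlap. It lay between 170 and 237 CPM in RGLS4326 mice. Reads assigned to genes ranged from 17603122 to 54981992 per library. The share of uniquely mapped reads that fell in no gene was 12.9% to 14.9% in UNT, 6.08% to 11.0% in PBS and 5.82% to 14.6% in RGLS4326 mice. The numbering in the library names restarts, which places the libraries in 3 sets, each with 3 or 4 mice of every group. Some libraries stood apart for the chemokine genes. PBS mouse 9 had the highest value of its group for 17 of 45 genes, PBS mouse 8 the lowest for 25, RGLS4326 mouse 6 the lowest for 22 and UNT mouse 9 the highest for 17.

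The kidney markers were present and moved with the groups. All 4 proximal tubule markers were lower in PBS than in UNT mice and higher in RGLS4326 than in PBS mice, and their summed level was 7676 to 10503 CPM in UNT, 638 to 2210 CPM in PBS and 1513 to 2594 CPM in RGLS4326 mice. All 7 macrophage markers were higher in PBS than in UNT mice, with summed levels of 586 to 1461 CPM against 92.0 to 155 CPM. In RGLS4326 mice the macrophage sum was 549 to 1055 CPM. *Cd68*, *C1qa* and *C1qb* were lower than in PBS mice and the other 4 did not pass the test. The T cell sum was 3.46 to 6.01 CPM in UNT, 10.4 to 33.2 CPM in PBS and 7.51 to 15.6 CPM in RGLS4326 mice. *Cd3e*, *Cd3d*, *Cd3g* and *Cd4* were higher in PBS than in UNT mice and lower with RGLS4326, whereas *Cd8a* passed neither test. The neutrophil sum was 1.60 to 7.51 CPM in UNT, 7.85 to 40.6 CPM in PBS and 10.7 to 21.1 CPM in RGLS4326 mice. All 4 neutrophil markers were higher in PBS than in UNT mice and 0 of 4 were called between RGLS4326 and PBS. *Ptprc*, the pan-leukocyte marker, lay between 8.70 and 14.3 CPM in UNT, 27.6 and 57.7 CPM in PBS and 36.3 and 75.3 CPM in RGLS4326 mice, and did not pass the treatment test (0.25, edgeR adjusted p = 0.0856). All 4 collecting duct markers were higher in PBS than in UNT mice, and *Aqp2* and *Hsd11b2* were lower with RGLS4326. The part of these cells in the chemokine values was not tested.

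Promoter and target-site sequences are shown for some of the members. RefSeq's table (GRCm38.p6) held promoters, from 250 bases before to 50 after the start, for 46 of the 62 genes. *Ccl2*, *Ccl5*, *Cxcl5* and *Cxcl16* had no entry. The letters GGGA and CC with any 4 bases between them, a pattern that NF-κB sites follow, were searched on both strands and were found in 23 of 55 member promoters (41.8%) and in 20.7% of all 32851 promoters. The letters GAAA repeated after any 2 bases, a pattern that interferon response elements follow, were found in 3 (5.45%) and in 3.44%. A match is a description of the letters. The promoters of *Cxcl1*, *Cxcl2*, *Ccl20* and *Cxcl10*, whose transcripts all rose in PBS mice, are shown as examples that hold a match, with matches to either pattern in capitals. The promoters of *Ccl6*, *Ccl8*, *Ccl9*, *Ccl12*, *Cx3cl1*, *Ccr2* and *Cx3cr1*, whose transcripts also rose, held 0 matches to either pattern. In *Cxcl1* and *Cxcl2* a match on the plus strand overlapped one on the minus strand, and in *Cxcl10* a match fitted both strands at the same position and was counted once.
*Cxcl1*, chr5:90890995-90891294, plus strand: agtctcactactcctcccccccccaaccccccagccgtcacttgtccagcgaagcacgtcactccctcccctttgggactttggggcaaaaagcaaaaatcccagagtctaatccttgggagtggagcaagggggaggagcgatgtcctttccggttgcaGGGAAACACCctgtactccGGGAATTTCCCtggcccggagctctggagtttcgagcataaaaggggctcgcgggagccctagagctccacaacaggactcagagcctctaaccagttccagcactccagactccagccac
*Cxcl2*, chr5:90903649-90903948, plus strand: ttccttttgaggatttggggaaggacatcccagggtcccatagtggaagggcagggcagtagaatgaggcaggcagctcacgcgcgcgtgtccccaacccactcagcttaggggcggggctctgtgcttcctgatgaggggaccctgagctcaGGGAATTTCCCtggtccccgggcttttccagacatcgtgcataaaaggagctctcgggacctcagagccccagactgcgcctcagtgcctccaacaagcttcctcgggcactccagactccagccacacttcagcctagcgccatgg
*Ccl20*, chr1:83116516-83116815, plus strand: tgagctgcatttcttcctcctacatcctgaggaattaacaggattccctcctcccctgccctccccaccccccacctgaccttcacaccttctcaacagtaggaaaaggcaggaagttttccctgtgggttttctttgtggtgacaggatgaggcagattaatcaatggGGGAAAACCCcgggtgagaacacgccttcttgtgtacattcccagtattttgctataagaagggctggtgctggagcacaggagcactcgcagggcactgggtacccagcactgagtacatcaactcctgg
*Cxcl10*, chr5:92348840-92349139, minus strand: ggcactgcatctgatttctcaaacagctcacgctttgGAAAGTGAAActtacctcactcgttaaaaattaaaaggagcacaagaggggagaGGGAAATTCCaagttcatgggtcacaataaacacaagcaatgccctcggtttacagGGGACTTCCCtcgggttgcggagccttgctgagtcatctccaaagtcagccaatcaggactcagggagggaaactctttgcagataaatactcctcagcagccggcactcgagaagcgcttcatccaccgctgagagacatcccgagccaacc

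The agent is directed at the miR-17 seed, so 3′ untranslated regions of the annotated transcripts (GENCODE M21, GRCm38) were searched for letters that pair with it. Mature miR-17-5p is printed with its seed, bases 2 to 8, in capitals. Matches of 7 bases (GCACTTT, or CACTTTA) were found in 9 of 59 members with such a region (15.3%) and in 21.2% of 14193 tested genes. Of the 45 members tested, 7 held a match (15.6%), among them *Ccl7*, *Ccl9*, *Ccl28*, *Cxcl12*, *Cxcr2* and *Cxcr6*. The 3 of these that were called between RGLS4326 and PBS are shown with the match in capitals. *Cxcl12* was higher in treated mice, and *Ccl9* and *Cxcr2* were lower.
mmu-miR-17-5p, chr14:115043684-115043706, plus strand: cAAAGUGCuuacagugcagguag
*Cxcl12*, chr6:117176810-117176836, plus strand: aatcttttctttggacaattCACTTTA
*Ccl9*, chr11:83575257-83575283, minus strand: aacattttttttttctgttcCACTTTA
*Cxcr2*, chr1:74160560-74160586, plus strand: ttgttatgtgtgttttacctCACTTTA

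Of the 62 genes, 45 passed the filter on low counts, made up of 29 ligands, 11 receptors and 5 atypical receptors. Only 22 of the 45 would have passed on the UNT libraries alone, so a gene could pass through its level in *Pkd2*-KO mice alone, and counts over the 45 are given as description. The 17 others were *Ccl1*, *Ccl19*, *Ccl21a*, *Ccl21b*, *Ccl21c*, *Ccl26*, *Ccl27b*, *Ccr3*, *Ccr4*, *Ccr6*, *Ccr8*, *Ccr10*, *Cxcl3*, *Cxcl15*, *Cxcr1*, *Cxcr5* and *Xcl1*. *Ccl19*, *Ccl21a*, *Ccl21b*, *Ccl21c* and *Ccl27b* had no read in any library. Only uniquely placed reads were counted, so reads that fit near-identical copies of a gene would be lost. Whether this gave the missing reads was not tested, and the level of these genes cannot be read from these tables. The level of *Ccl27a* could be affected in the same way.

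PBS and UNT mice were compared first, to ask which chemokine genes differ in the cystic kidney. Chemokines and their receptors were higher in PBS mice for 40 of 45 genes and lower for 4, and *Cxcl13* did not pass the test (quasi-likelihood test of edgeR at an adjusted p under 0.05, with the Benjamini-Hochberg adjustment made over 15644 genes). Their median log2 fold change was 3.07, against 0.04 over all genes tested. Over all genes 82.1% were called, 43.1% higher and 39% lower. For 34 of the 45 (75.6%) the values of all PBS mice lay apart from those of all UNT mice, against 42.5% of all genes. All 11 receptors, 25 of 29 ligands and 4 of 5 atypical receptors were higher. The 40 higher genes were higher within each of the 3 library sets. Scaling by library totals in place of TMM moved the median of all genes to 0.33 and the share of calls that were higher from 52.5% to 68.6%, and *Ccrl2* then went from -0.26 to 0.033 and was not called. In set 3 alone *Ccrl2* stood at 0.11, also not called. *Ccrl2* also missed the test without PBS mouse 8 (edgeR adjusted p = 0.0502). *Cxcl13*, which draws B cells and stood at 0.84 over all libraries, was called higher without PBS mouse 8 (0.95, edgeR adjusted p = 0.0361) or UNT mouse 9 (1.06, edgeR adjusted p = 0.0236), with library totals (1.13, edgeR adjusted p = 0.0137) and in set 1 alone (1.93, edgeR adjusted p = 0.0122). It stood at 0.11 in set 2, 0.35 in set 3 and -0.093 with the percentage of no-gene reads as a covariate, none of them called.

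**Figure D1:**
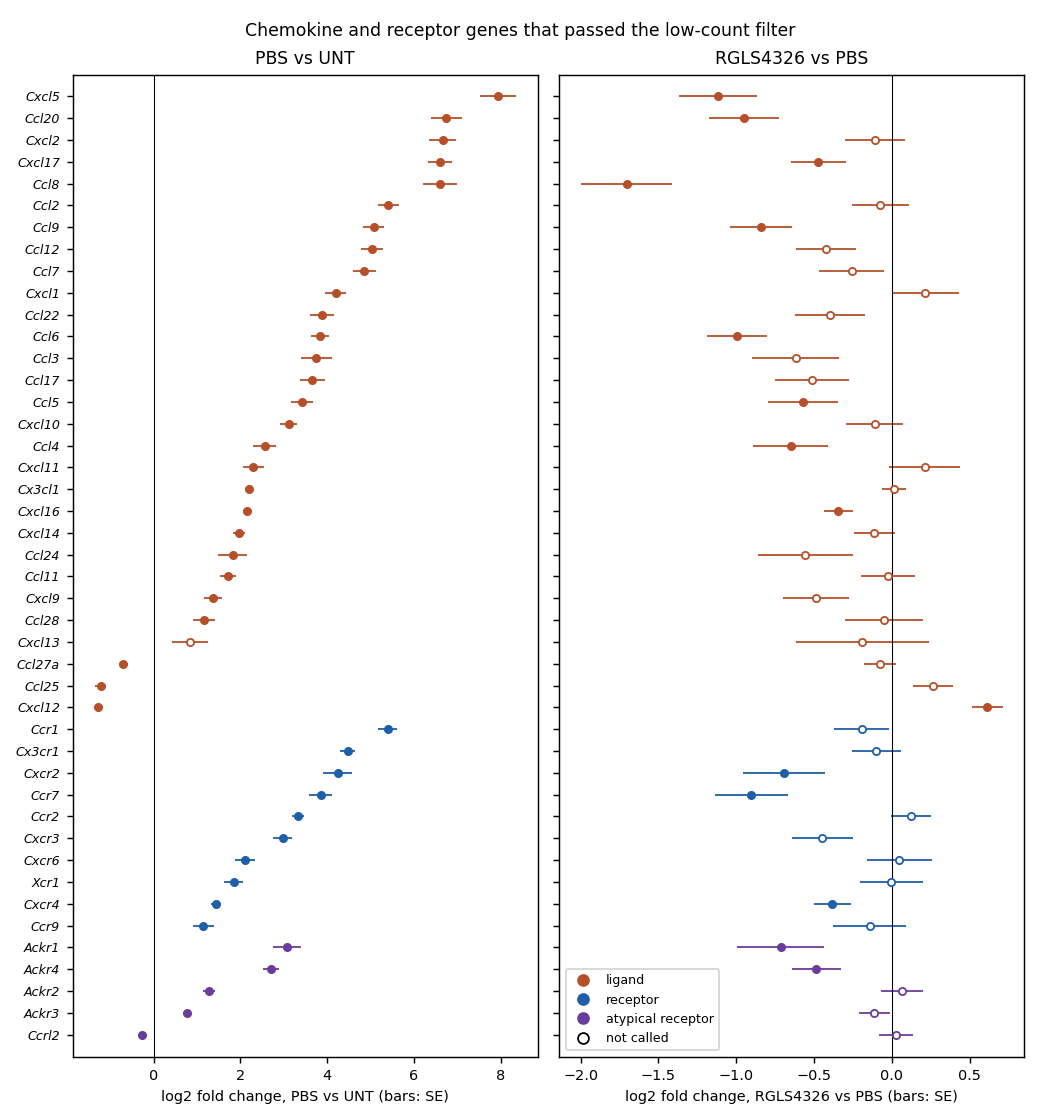
Log2 fold changes with standard errors for 44 of the 45 chemokine genes that passed the low-count filter, PBS against UNT mice on the left and RGLS4326 against PBS mice on the right, with ligands, receptors and atypical receptors in separate colours and uncalled genes as open points. On the left 39 points are called above 0, and on the right 14 are called below 0 and *Cxcl12* is called above 0.

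RGLS4326 and PBS mice were then compared, to ask which of these genes moved with treatment. Lower levels were called for 14 of 45 genes, a higher level for *Cxcl12*, and 30 were not called. Over all genes 33.8% were called, 15.3% higher and 18.5% lower, so the 33.3% of members called lay at the background, and the 31.1% called lower lay above the background for that direction. No test of that difference was made. The 14 genes were the ligands *Ccl4*, *Ccl5*, *Ccl6*, *Ccl8*, *Ccl9*, *Ccl20*, *Cxcl5*, *Cxcl16* and *Cxcl17*, the receptors *Ccr7*, *Cxcr2* and *Cxcr4*, and the atypical receptors *Ackr1* and *Ackr4*. All 14 were higher in PBS than in UNT mice, and *Cxcl12* was lower, but these comparisons share the PBS mice. The median log2 fold change was -0.19, against 0.00 over all genes. No member had groups that did not overlap (0 of 45, against 0.0639% of all genes). Against UNT mice, 40 genes were still higher and 4 lower in RGLS4326 mice, where 77.7% of all genes were called.

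Treatment calls depended on the libraries. Within the sets alone, 1 of 45 genes was called in set 1 (*Ccl8*), 8 in set 2 (7 of the 15, and *Ccl17*) and 0 in set 3, where 10 had an unadjusted p under 0.05 by the same edgeR test. Over all genes 57, 4049 and 0 were called in the sets. Without PBS mouse 9 or RGLS4326 mouse 6 the count of lower genes was 9, without PBS mouse 8 it was 18 and without UNT mouse 9 it was 15. Of the 14 lower genes, 13 were lower in every set and *Ccl5* was the exception, and *Cxcl12* was higher in every set. With the percentage of no-gene reads as a covariate, *Ccl6*, *Ccl8* and *Cxcl12* were still called and the other 12 were not, and 145 of all genes were called. All 12 kept negative values. These stayed near those over all libraries for *Cxcl5* (-1.10), *Ccl20* (-0.90), *Cxcr2* (-0.72), *Ackr1* (-0.65), *Cxcl17* (-0.45) and *Cxcr4* (-0.39). They were smaller in size for *Ccr7* (-0.72), *Ccl9* (-0.66), *Ccl4* (-0.46), *Ackr4* (-0.42), *Ccl5* (-0.31) and *Cxcl16* (-0.20). The share of no-gene reads lay apart between the groups in set 2, the set with most calls, at 6.54% to 11.0% in PBS and 13.9% to 14.6% in RGLS4326 mice. The groups overlapped in set 1 (6.08% to 8.89% and 5.82% to 10.3%) and in set 3 (6.999% to 7.94% and 7.21% to 14.5%). Apart from the fit with the covariate, its part in the treatment values was not tested.

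**Figure D2:**
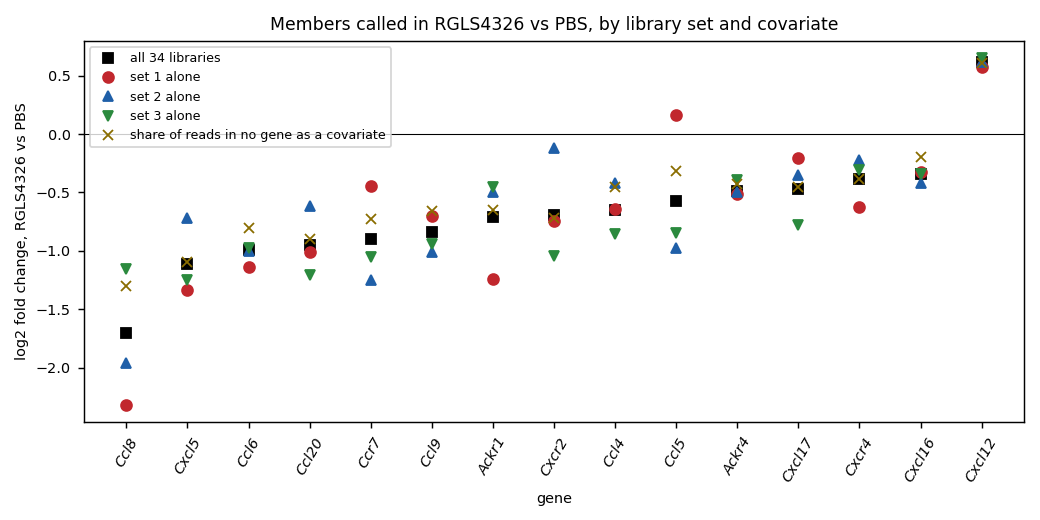
Log2 fold change between RGLS4326 and PBS mice for the 15 chemokine genes called, in the fit of all 34 libraries, in each library set alone and with the percentage of no-gene reads as a covariate. All estimates for *Cxcl12* lie above 0 and all for the other genes lie below 0, except *Ccl5* in set 1 at 0.17.

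*Ccl8*, *Ccl6* and *Ccl9* are CC ligands that draw monocytes and other leukocytes, and were set beside *Ccr1*, a receptor of monocytes, macrophages and neutrophils. *Ccl8* lay between 0.114 and 0.387 CPM in UNT mice (median 0.219), between 4.86 and 48.3 CPM in PBS mice (median 20.4) and between 3.27 and 15.5 CPM in RGLS4326 mice (median 5.72). PBS mice were all above UNT mice, and the upper PBS mice were above every treated mouse. The log2 fold change was 6.59 ± 0.39 (SE) in PBS against UNT mice (adjusted p = 1.89e-17) and -1.71 ± 0.30 in RGLS4326 against PBS mice (adjusted p = 0.000608), the largest change of any member with treatment. It was -2.32, -1.96 and -1.15 in sets 1, 2 and 3, and -1.30 with the covariate (edgeR adjusted p = 0.0297).

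*Ccl6* lay between 4.10 and 6.24 CPM in UNT mice (median 4.98), between 28.9 and 128 CPM in PBS mice (median 59.8) and between 16.8 and 58.1 CPM in RGLS4326 mice (median 38.4). The UNT values were well below both other groups, which overlapped each other. It rose by 3.83 ± 0.21 on the log2 scale in PBS mice (adjusted p = 1.88e-18) and changed by -1.0 ± 0.19 with treatment (adjusted p = 0.00131). In the sets the treatment value was -1.14, -1.0 and -0.97. *Ccl9* lay between 0.791 and 1.90 CPM in UNT mice (median 1.48), 17.3 and 93.2 CPM in PBS mice (median 42.8) and 9.78 and 38.2 CPM in RGLS4326 mice (median 29.9). It changed by 5.07 ± 0.24 in PBS mice (adjusted p = 2.86e-20) and by -0.84 ± 0.20 with treatment (adjusted p = 0.00436), with -0.70, -1.01 and -0.95 in the sets. Their highest PBS values were well above the highest treated values.

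*Ccr1* itself lay between 0.266 and 0.757 CPM in UNT mice (median 0.538), between 11.7 and 32.9 CPM in PBS mice (median 23.3) and between 8.04 and 32.3 CPM in RGLS4326 mice (median 20.5). Both *Pkd2*-KO groups spanned nearly the same range, far above UNT. The change was 5.39 ± 0.22 in PBS mice (adjusted p = 9.10e-22), and the treatment difference of -0.19 (95% interval -0.54 to 0.15) did not pass the test. Of its 6 paired ligands, all were higher in PBS mice, and *Ccl5*, *Ccl6*, *Ccl8* and *Ccl9* were lower with treatment while *Ccl3* and *Ccl7* were not called. *Ccr8*, the other receptor paired with *Ccl8*, did not pass the low-count filter, with 5 reads over the UNT, 71 over the PBS and 23 over the RGLS4326 libraries. In the fit without that filter it stood at 3.45 with disease and at -1.16 with treatment (edgeR adjusted p = 0.0607).

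**Figure D3:**
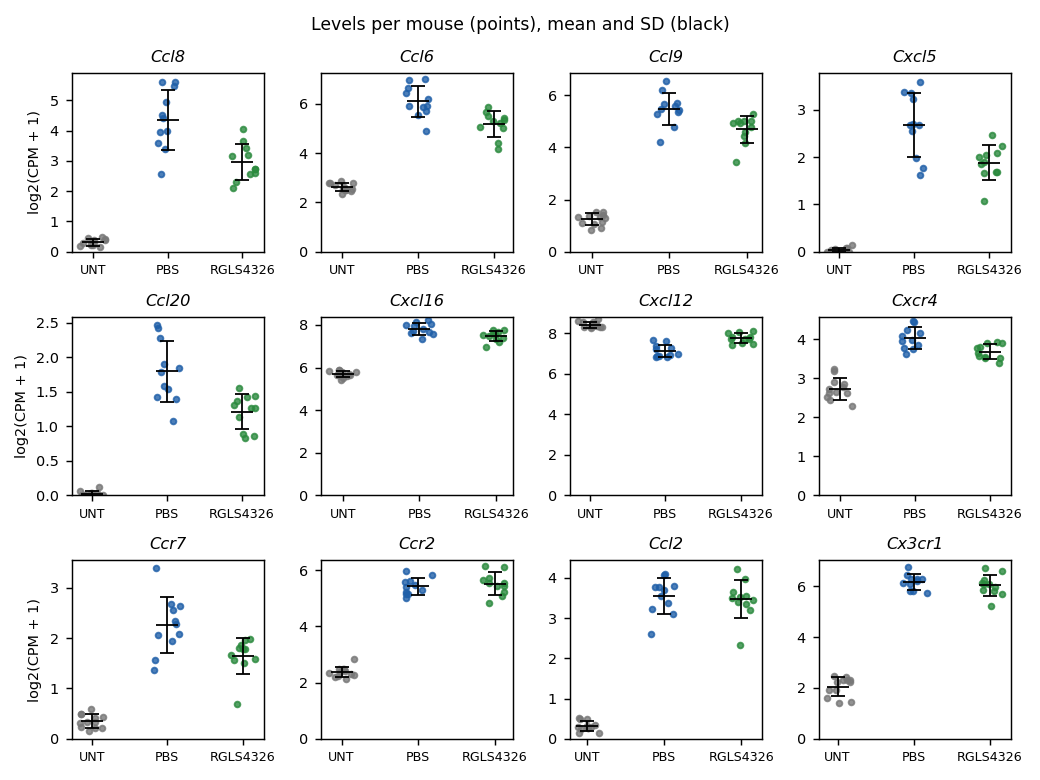
Levels of 12 chemokine genes on the log2(CPM + 1) scale in each mouse (points), with the mean and SD of each group in black. For *Ccl8*, PBS mice reach 48.3 CPM and RGLS4326 mice 15.5 CPM, whereas *Ccr2*, *Ccl2* and *Cx3cr1* span similar ranges in both *Pkd2*-KO groups.

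The *Ccr2* axis, through which monocytes leave the bone marrow and enter tissue, differed with disease and did not pass the test with treatment. *Ccr2* lay between 3.34 and 6.15 CPM in UNT mice (median 4.12), between 31.4 and 61.3 CPM in PBS mice (median 41.1) and between 27.6 and 69.9 CPM in RGLS4326 mice (median 45.1). All *Pkd2*-KO mice were above all UNT mice. The log2 fold change was 3.33 ± 0.14 with disease (adjusted p = 1.36e-21) and 0.12 with treatment (95% interval -0.13 to 0.37, adjusted p = 0.471).

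*Ccl2*, its main monocyte ligand, lay between 0.107 and 0.431 CPM in UNT mice (median 0.230), between 5.03 and 16.0 CPM in PBS mice (median 11.9) and between 4.02 and 17.8 CPM in RGLS4326 mice (median 10.3). It changed by 5.41 ± 0.24 with disease (adjusted p = 4.39e-21) and by -0.07 with treatment (95% interval -0.43 to 0.28). Within the sets the treatment value was -0.54, -0.26 and 0.55, so its sign was not the same in every set. *Ccl7* and *Ccl12*, which share the receptor, changed by 4.85 ± 0.27 and 5.03 ± 0.24 with disease. Their treatment values were -0.26 (95% interval -0.67 to 0.15) and -0.42 (95% interval -0.80 to -0.04), neither called. Without PBS mouse 8, *Ccl12* was called lower at -0.51 (edgeR adjusted p = 0.0298).

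*Ccl2*, *Ccl7*, *Ccl11*, *Ccl12* and *Ccl8* lie in the same cluster on chromosome 11, from 82035571 to 82116799, and the other CC ligands *Ccl5*, *Ccl9*, *Ccl6*, *Ccl3* and *Ccl4* lie from 83525778 to 83664683 (GRCm38). Of the 45 genes tested, 12 were on chromosome 11, 10 on chromosome 9, where *Ccr1*, *Ccr2*, *Ccr9*, *Cxcr6*, *Xcr1* and *Cx3cr1* lie, and 8 on chromosome 5, where the Cxcl genes of the *Cxcr2* and *Cxcr3* axes lie. The 5 genes of the first cluster had treatment values from -0.03 for *Ccl11* to -1.71 for *Ccl8*.

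*Ccl4* and *Ccl5*, secreted by activated macrophages and T cells, were called lower with treatment, and *Ccl3*, which macrophages also secrete, was not. *Ccl5* lay between 0.505 and 1.78 CPM in UNT mice (median 0.630), between 3.94 and 17.9 CPM in PBS mice (median 6.80) and between 3.10 and 9.42 CPM in RGLS4326 mice (median 5.35). It changed by 3.42 ± 0.25 with disease (adjusted p = 5.99e-15) and by -0.57 ± 0.22 with treatment (adjusted p = 0.0462). In set 1 the treatment value was 0.17, and in sets 2 and 3 it was -0.98 and -0.85. *Ccl4* lay between 0.0802 and 0.685 CPM in UNT, 0.664 and 3.91 CPM in PBS and 0.640 and 1.36 CPM in RGLS4326 mice, with medians of 0.253, 1.32 and 1.14 CPM. The top of the PBS range was well above that of treated mice while the medians were close. It changed by 2.56 ± 0.26 with disease and by -0.65 ± 0.24 with treatment (adjusted p = 0.0372). Without PBS mouse 9 the treatment calls of both were lost, at -0.45 for *Ccl4* (edgeR adjusted p = 0.125) and -0.37 for *Ccl5* (edgeR adjusted p = 0.157). Without RGLS4326 mouse 6 they were also lost, at -0.59 for *Ccl4* (edgeR adjusted p = 0.0692) and -0.51 for *Ccl5* (edgeR adjusted p = 0.0858). *Ccl3* had medians of 0.0708, 1.15 and 0.823 CPM in UNT, PBS and RGLS4326 mice and a treatment value of -0.62 (95% interval -1.17 to -0.07, adjusted p = 0.0811). It was called without PBS mouse 8, at -0.73 (edgeR adjusted p = 0.0299).

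*Cxcl5*, *Cxcl2* and *Cxcl1* are ligands of *Cxcr2* and attract neutrophils. *Cxcl5* had 9 reads over all UNT libraries and was at 0 in 7 of 12, and lay between 2.08 and 11.1 CPM in PBS mice (median 5.44) and between 1.10 and 4.56 CPM in RGLS4326 mice (median 2.73). The disease change of 7.94 ± 0.42 was the largest of any member (adjusted p = 7.92e-19). With treatment it fell by 1.12 ± 0.25 on the log2 scale (adjusted p = 0.00315), and the sets gave -1.33, -0.72 and -1.25. *Cxcl2* lay between 0 and 0.0966 CPM in UNT, 1.71 and 4.69 CPM in PBS and 1.66 and 4.32 CPM in RGLS4326 mice. It changed by 6.66 ± 0.31 with disease (adjusted p = 3.49e-20) and by -0.11 with treatment (95% interval -0.49 to 0.27). *Cxcl1* had medians of 0.945, 18.9 and 24.0 CPM in UNT, PBS and RGLS4326 mice and changed by 4.19 ± 0.25 with disease. Its treatment value was 0.21 (95% interval -0.21 to 0.64), and -0.037 in set 2 alone. So of the 3 tested ligands that the rule took and that were paired with the receptor here, only *Cxcl5* was called lower with treatment. *Ppbp*, a related gene that the rule does not take, was also lower with treatment and is given below. The differences between the ligands were not tested.

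*Cxcr2*, the receptor, lay between 0 and 0.203 CPM in UNT mice (median 0.0706), between 0.507 and 4.21 CPM in PBS mice (median 1.79) and between 0.605 and 1.62 CPM in RGLS4326 mice (median 0.975). The top PBS values lay above every treated mouse. It changed by 4.24 ± 0.34 with disease (adjusted p = 8.80e-14) and by -0.69 ± 0.26 with treatment (adjusted p = 0.0418), and by -0.43 without PBS mouse 9 (edgeR adjusted p = 0.158) and -0.63 without RGLS4326 mouse 6 (edgeR adjusted p = 0.0748). In the sets the treatment value was -0.75, -0.12 and -1.04. The neutrophil markers, of which 0 of 4 were called with treatment, had a median change of -0.76, and their part in the *Cxcr2* value was not tested.

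**Figure D4:**
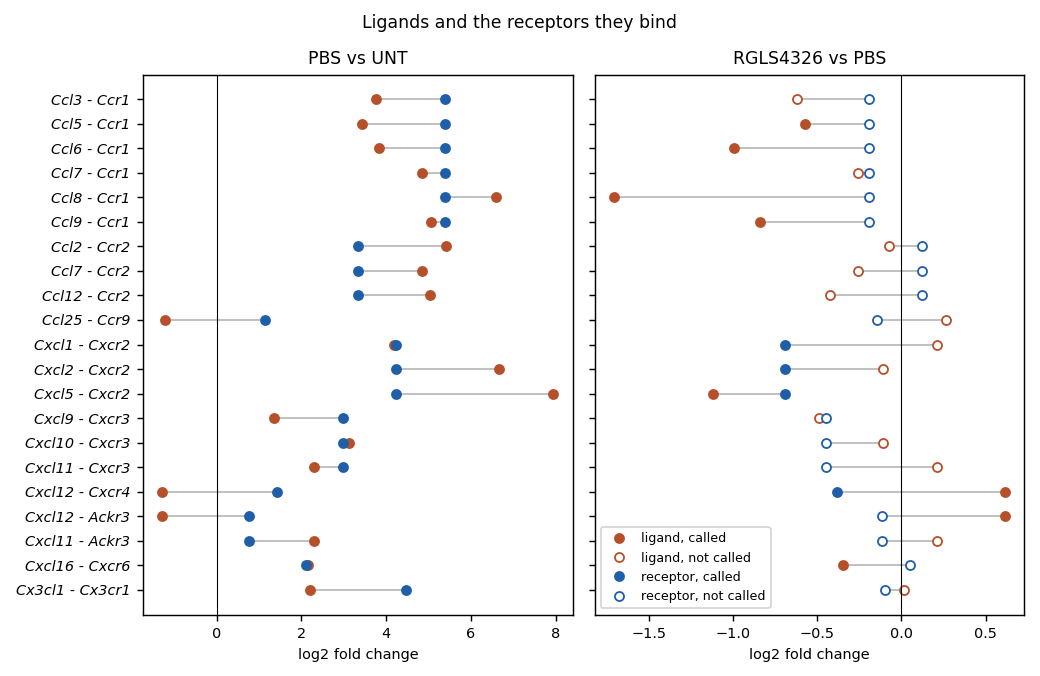
Log2 fold change of ligands and of the receptors they were paired with, joined by a line, in PBS against UNT mice (left) and RGLS4326 against PBS mice (right), with uncalled values as open points. With disease *Cxcl12* and *Ccl25* lie below 0 while their receptors lie above 0, and with treatment *Cxcl12* lies at 0.61 and *Cxcr4* at -0.38.

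*Cxcl12* and its receptor *Cxcr4* moved in opposite directions in both comparisons. *Cxcl12* is made by stromal and endothelial cells and retains Cxcr4-bearing cells. *Cxcl12* lay between 307 and 422 CPM in UNT mice (median 329), between 113 and 200 CPM in PBS mice (median 125) and between 169 and 274 CPM in RGLS4326 mice (median 211). UNT mice were all above the other groups, and the treated mice lay mostly above the PBS mice with some overlap. It changed by -1.28 ± 0.10 on the log2 scale in PBS mice (adjusted p = 6.61e-14) and by 0.61 ± 0.10 with treatment (adjusted p = 0.000395). The treatment value was 0.57, 0.62 and 0.65 in the sets and 0.61 with the covariate (edgeR adjusted p = 0.00818). Against UNT mice the treated mice remained lower, at -0.66 ± 0.10.

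*Cxcr4* lay between 3.87 and 8.43 CPM in UNT mice (median 5.39), between 11.3 and 21 CPM in PBS mice (median 14.6) and between 9.47 and 14.1 CPM in RGLS4326 mice (median 11.6). It changed by 1.43 ± 0.12 with disease (adjusted p = 1.68e-13) and by -0.38 ± 0.12 with treatment (adjusted p = 0.0152), with -0.62, -0.22 and -0.30 in the sets. *Ackr3*, an atypical receptor that takes up *Cxcl12*, had medians of 53.7, 90.8 and 87.7 CPM in UNT, PBS and RGLS4326 mice. It changed by 0.77 ± 0.10 with disease (adjusted p = 7.70e-09) and by -0.11 with treatment (95% interval -0.31 to 0.08). Of the 4 endothelial markers, *Kdr* and *Emcn* moved with *Cxcl12*, lower with disease and higher with treatment. *Pecam1* was higher in both comparisons, and *Cdh5* was higher with disease (0.50) and not called with treatment (0.20). All 6 fibroblast markers were higher with disease, with a median of 1.95, and *Pdgfra* alone was called with treatment, as higher. The proximal tubule and podocyte lists also fell with disease and rose with treatment, for all 4 and all 3 markers. Their part in the *Cxcl12* value was not tested.

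*Cxcl16*, a membrane-bound chemokine of epithelial cells and macrophages, is the ligand of *Cxcr6*, found on T cells. *Cxcl16* lay between 41.4 and 57.8 CPM in UNT mice (median 50.3), between 158 and 302 CPM in PBS mice (median 222) and between 124 and 217 CPM in RGLS4326 mice (median 182). It changed by 2.16 ± 0.10 with disease (adjusted p = 5.55e-21) and by -0.34 ± 0.09 with treatment (adjusted p = 0.00859), at -0.32, -0.42 and -0.34 in the sets. *Cxcl16* shares exon sequence with *Zmynd15* on the other strand, and the strand setting of the counting is not given in the sources used here, so its level is uncertain. *Cxcr6* had medians of 0.440, 2.1 and 2.14 CPM in UNT, PBS and RGLS4326 mice. It changed by 2.11 ± 0.22 with disease (adjusted p = 1.07e-10) and by 0.05 with treatment (95% interval -0.36 to 0.45).

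*Cx3cl1*, or fractalkine, a membrane-bound chemokine of epithelium and endothelium, binds *Cx3cr1*, a receptor of resident macrophages. *Cx3cl1* lay between 66.4 and 98.6 CPM in UNT mice (median 81.3), between 307 and 452 CPM in PBS mice (median 368) and between 297 and 472 CPM in RGLS4326 mice (median 375). It changed by 2.20 ± 0.08 with disease (adjusted p = 2.33e-23) and by 0.01 with treatment (95% interval -0.14 to 0.17), the narrowest interval among the members. *Cx3cr1* had medians of 3.68, 73.0 and 66.8 CPM in UNT, PBS and RGLS4326 mice, and changed by 4.47 ± 0.18 with disease (adjusted p = 5.48e-22) and by -0.10 with treatment (95% interval -0.41 to 0.21). Its exons overlap *Gm33858* on the other strand, so its counts carry the same uncertainty.

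*Ccl20* attracts cells that carry *Ccr6*, such as some T cells and B cells. *Ccl20* had 9 reads over all UNT libraries, and lay between 1.12 and 4.51 CPM in PBS mice (median 2.44) and between 0.776 and 1.95 CPM in RGLS4326 mice (median 1.41). It changed by 6.74 ± 0.36 with disease (adjusted p = 1.12e-18) and by -0.95 ± 0.22 with treatment (adjusted p = 0.00418), at -1.01, -0.61 and -1.21 in the sets. *Ccr6* was among the genes that did not pass the filter, with 98 reads over the PBS libraries and 8 over the UNT libraries. *Cxcl17*, a mucosal chemokine, lay between 0 and 0.0681 CPM in UNT, 2.15 and 6.42 CPM in PBS and 1.67 and 5.06 CPM in RGLS4326 mice. It changed by 6.59 ± 0.28 with disease (adjusted p = 1.36e-21) and by -0.47 ± 0.18 with treatment (adjusted p = 0.0398), and was not called without PBS mouse 9 (-0.38, edgeR adjusted p = 0.0987) or RGLS4326 mouse 6 (-0.43, edgeR adjusted p = 0.0748).

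*Ccr7* guides dendritic cells and T cells to lymphoid tissue. *Ccr7* lay between 0.107 and 0.507 CPM in UNT mice (median 0.260), between 1.59 and 9.45 CPM in PBS mice (median 3.89) and between 0.605 and 2.93 CPM in RGLS4326 mice (median 2.44). The highest PBS mice were above all treated mice. It changed by 3.85 ± 0.27 with disease (adjusted p = 3.14e-15) and by -0.90 ± 0.23 with treatment (adjusted p = 0.00652), with -0.45, -1.25 and -1.05 in the sets. Its ligands *Ccl19* and *Ccl21a* had no counted read. The T cell markers *Cd3e*, *Cd3d*, *Cd3g* and *Cd4* moved with *Ccr7* in both comparisons, and 3 of 4 dendritic cell markers (*Flt3*, *Itgax* and *Clec9a*) were higher with disease. With treatment *Itgax*, which macrophages also carry, was lower (-0.44, edgeR adjusted p = 0.0402), *Zbtb46* was higher (0.34, edgeR adjusted p = 0.0135), and *Flt3* and *Clec9a* were not called. Their part in the *Ccr7* value was not tested.

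Among the atypical receptors, *Ackr4*, which takes up *Ccl19*, Ccl21 and *Ccl25*, had medians of 0.220, 1.61 and 0.996 CPM in UNT, PBS and RGLS4326 mice. It changed by 2.71 ± 0.18 with disease (adjusted p = 3.26e-16) and by -0.48 ± 0.16 with treatment (adjusted p = 0.0201), and its exons overlap *Acad11* on the other strand. *Ackr1*, carried by venular endothelium and red cells, changed by 3.07 ± 0.33 with disease and by -0.71 ± 0.28 with treatment (adjusted p = 0.0475). *Ackr1* did not pass the test without PBS mouse 9 (-0.68, edgeR adjusted p = 0.0751) or RGLS4326 mouse 6 (-0.65, edgeR adjusted p = 0.0860). It overlaps *Cadm3* on its own strand. *Ackr2* changed by 1.27 ± 0.14 with disease and by 0.07 with treatment (95% interval -0.20 to 0.33).

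The *Cxcr3* axis, whose ligands are induced by interferon and which draws activated T cells, was higher with disease throughout. *Cxcr3* changed by 2.98 ± 0.22, *Cxcl10* by 3.11 ± 0.20, *Cxcl11* by 2.30 ± 0.25 and *Cxcl9* by 1.37 ± 0.21 on the log2 scale. With treatment none of the 4 was called, at -0.45, -0.11, 0.21 and -0.49, and the values of *Cxcl10*, *Cxcl11* and *Cxcl9* did not keep 1 sign over the sets. Without PBS mouse 8, *Cxcl9* and *Cxcr3* were called lower, at -0.57 and -0.50 (edgeR adjusted p = 0.0280 and 0.0490), and *Cxcl9* was also called without UNT mouse 9 (edgeR adjusted p = 0.0462). *Cxcl10* and *Cxcl11* overlap *Art3* and *Gm2673* on the other strand.

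Of the 4 genes lower with disease, *Cxcl12* is given above. *Ccl25*, a ligand of *Ccr9*, had medians of 4.45, 1.90 and 2.30 CPM in UNT, PBS and RGLS4326 mice and changed by -1.21 ± 0.12 with disease (adjusted p = 4.40e-11), whereas *Ccr9* changed by 1.15 ± 0.24. *Ccl27a* had medians of 7.5, 4.56 and 4.19 CPM and changed by -0.69 ± 0.10 with disease. With the percentage of no-gene reads as a covariate, *Ccl25* stood at -0.61 and was still called, whereas *Ccl27a* (-0.25, edgeR adjusted p = 0.111) and *Ccr9* (0.64, edgeR adjusted p = 0.136) were not. *Ccr9* was also not called in set 2 alone (0.67, edgeR adjusted p = 0.0761). *Ccrl2*, a receptor that binds chemerin and concentrates it at the cell surface, changed by -0.26 ± 0.11 (adjusted p = 0.0241), and this sign depended on scaling and library set as given above. *Ccl25* overlaps *Elavl1*, and *Ccl27a* overlaps *Il11ra1*, on the other strand. *Ccr9* overlaps *Gm17200* on its own strand and *Slc6a20a* and AC165425.1 on the other, so the *Ccr9* level is uncertain.

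The other members called higher with disease were *Ccl11*, *Ccl17*, *Ccl22*, *Ccl24*, *Ccl28*, *Cxcl14* and *Xcr1*, from 1.17 for *Ccl28* to 3.88 for *Ccl22*. *Ccl24* missed the test in set 2 alone (0.78, edgeR adjusted p = 0.0672) and *Ccl28* in set 3 alone (0.49, edgeR adjusted p = 0.154). Of the 7, none was called with treatment over all libraries, where values lay between -0.56 for *Ccl24* and 0.00 for *Xcr1*. *Ccl17*, at -0.52, was called lower in set 2 alone (-1.07, edgeR adjusted p = 0.0467) and stood at -0.065 in set 1. Per kilobase of exon, *Cxcl12* was the highest ligand in UNT mice, with a median of 40.2 CPM per kb, ahead of *Cxcl14*, *Cx3cl1* and *Cxcl16*. In PBS mice *Cx3cl1* was highest at 93.7 CPM per kb, followed by *Cxcl14* at 83.0 and *Cxcl16* at 73.3, and *Cxcl12* was 7th of 29 at 15.3.

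Genes that act with the family moved as follows. Of 28 tested signalling genes downstream of chemokine receptors, 25 were higher and 1, the receptor kinase gene *Adrbk2*, was lower with disease, with a median of 1.40. Over all genes 43.1% were higher and 39% lower with disease, against 89.3% and 3.57% of these. With treatment 3 were higher (*Gnai3*, *Gng2* and *Adrbk2*) and 4 lower (the G protein subunits *Gnai2* and *Gnb1*, *Arrb2* and *Adrbk1*), so that 25% were called, below the 33.8% of all genes. Of 22 tested genes that induce chemokines, 21 (95.5%) were higher with disease and *Il17ra* was lower. With treatment 4 were lower, *Ifnar1*, *Myd88*, *Rela* and *Irf1*, between -0.15 and -0.32, a share of 18.2% that lay at the 18.5% of all genes called lower. *Tnf* and *Il1b* changed by 4.45 and 3.95 with disease and were not called with treatment, at -0.37 and -0.34. Of 6 related genes that the rule does not take, *Pf4*, *Ppbp*, *Rarres2*, *Cmklr1* and *Cd74* were higher and *Mif* was lower with disease. The share higher was 83.3%, against 43.1% of all genes. With treatment *Pf4*, *Ppbp*, *Rarres2* and *Cd74* were lower, a share of 66.7% against 18.5% of all genes. These differences in share were not tested.

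Ligand and receptor levels were also compared across mice within each *Pkd2*-KO group, for 8 pairs and 16 correlations of log2(CPM + 1), with two-sided permutation p-values adjusted over all 16. In PBS mice *Cxcl12* and *Cxcr4* were inversely related (r = -0.75, adjusted permutation p = 0.0499, n = 11, and rho = -0.79, adjusted permutation p = 0.0898). The value was -0.81 without the 2 mice farthest from the median of *Cxcl12*, and -0.82 with values centred within library sets (adjusted permutation p = 0.0197). Permutations of centred values ran over all mice of a group and not within sets, so p-values for centred values may be too small. In RGLS4326 mice the same pair had r = 0.19 (adjusted permutation p = 0.839, n = 11) and rho = 0.30, and the difference between the groups was not tested.

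In RGLS4326 mice *Ccl3* rose with *Ccr1* (r = 0.83, adjusted permutation p = 0.0182, n = 11, and rho = 0.73, adjusted permutation p = 0.106), and *Cx3cl1* with *Cx3cr1* (r = 0.81, adjusted permutation p = 0.0182, n = 11, and rho = 0.70, adjusted permutation p = 0.106). Without the 2 mice farthest from the median of the ligand, r was 0.73 and 0.64. Centred within library sets, r was 0.80 and 0.82. In PBS mice these pairs had r = 0.69 (adjusted permutation p = 0.0718) and -0.05. Centred within library sets, *Ccl3* and *Ccr1* and *Cxcl10* and *Cxcr3* were among the pairs that also passed in PBS mice, at r of 0.75 and 0.84 (adjusted permutation p = 0.0239 for each). Without centring, *Ccl2* and *Ccr2*, *Cxcl1* and *Cxcr2*, *Cxcl10* and *Cxcr3*, and *Cxcl16* and *Cxcr6* lay between -0.10 and 0.54 in both groups. Leaving out the 2 farthest mice turned r in PBS mice from 0.094 to -0.80 for *Ccl2* and *Ccr2* and from 0.23 to -0.33 for *Cxcl16* and *Cxcr6*, so those values depended on these mice. Each pair is measured in the same libraries, so composition and library quality are shared between ligand and receptor.

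**Figure D5:**
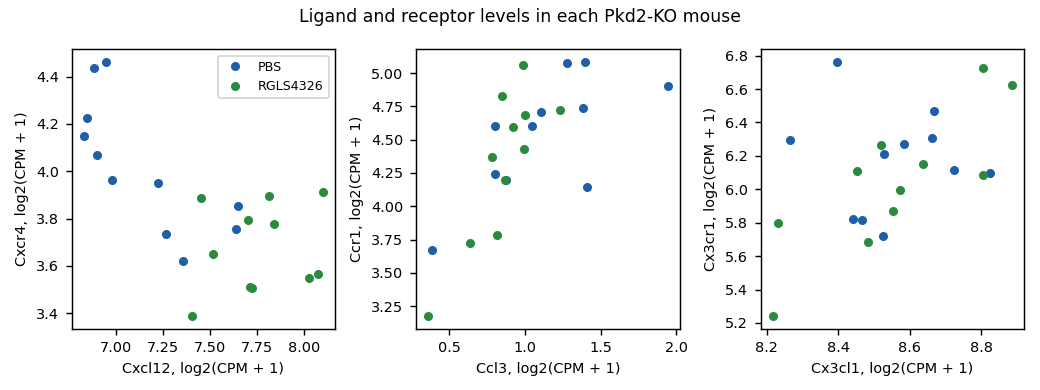
Ligand against receptor level on the log2(CPM + 1) scale in each PBS and RGLS4326 mouse for *Cxcl12* and *Cxcr4*, *Ccl3* and *Ccr1*, and *Cx3cl1* and *Cx3cr1*. The PBS mice fall along a downward line for *Cxcl12* and *Cxcr4* (r = -0.75), whereas the RGLS4326 mice do not (r = 0.19).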

How the data were processed

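Kidney RNA from 34 mice was analysed from the read counts per gene that the authors deposited, 1 table per mouse, neither normalized nor pooled. Per the labels and methods, stranded TruSeq libraries were sequenced as paired ends, trimmed with Trim Galore, mapped with STAR to GRCm38 (mm10) and counted with HTSeq (version 0.6.1). The annotation and strand setting are not given in the sources used here. Reads in no gene, ambiguous or not uniquely placed were left out of library sizes.

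Groups came from the labels. Counts were filtered with filterByExpr, scaled by TMM and tested with the edgeR (version 4.0.16) quasi-likelihood test on all 34 libraries in 3 groups, without covariates, with Benjamini-Hochberg adjustment over 15644 genes. CPM values use the same factors. The procedure was tested on simulated data. Standard errors were worked out from the log2 fold change and its edgeR test statistic, and the intervals from these standard errors. In PBS against UNT mice they are too small for genes near 0 in UNT mice, where they lie below counting error alone. Among these were *Cxcl5* and *Ccl20* (9 UNT reads each), *Cxcl2* (11) and *Cxcl17* (17). Alternatives were DESeq2 (version 1.42.0), other scalings and filters, library sets, a covariate and left-out mice.

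The members and gene lists were chosen with earlier results of these data known. Values are given in full for the 10 members with the smallest p in PBS against UNT, the 10 in RGLS4326 against PBS, and their paired ligands or receptors. Others named with values were chosen after their values were seen. Values of 1 member are not reported here, and counts over the members include it.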

Additional observations from a re-analysis of the deposited data

How the results depend on the processing

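For the 26 members given in full (the 10 with the smallest p in each comparison and their paired genes), the values for PBS and for RGLS4326 against UNT mice kept their direction and their call in each alternative. Over all 45 members, the disease calls lost were *Ccl24* and *Ccr9* in set 2, *Ccl28* and *Ccrl2* in set 3, *Ccl27a* and *Ccr9* with the percentage of no-gene reads as a covariate, and *Ccrl2* without PBS mouse 8 or with library totals in place of TMM. Of the other 19 members, *Ccrl2* (set 3 and library totals) and *Cxcl13* (covariate) changed sign with disease. The treatment comparison was less stable. Against 1 higher and 14 lower genes, set 1 alone gave 0 higher and 1 lower, set 2 alone 7 lower (*Ccl17* among them), set 3 alone 0 higher and 0 lower (10 at an unadjusted p under 0.05, edgeR), and the covariate 2 lower. The lower genes that lost their call with the covariate kept negative values, some near those over all libraries and some smaller in size, as given above. Set 3 and the covariate fits were made with edgeR alone. The fits by set hold fewer mice. The mice left out were chosen after seeing the data, and the count of lower genes then ran from 9 (without PBS mouse 9 or RGLS4326 mouse 6) to 18 (without PBS mouse 8). DESeq2 called the same 15 genes. The fit of the PBS and RGLS4326 mice alone called 12 of them, without *Ccl5*, *Cxcl17* and *Cxcr2*. The unfiltered fit called 10 of the 15 and also *Ccr4*. Among the 26, treatment values that changed sign were *Ccl5* (0.17), *Cx3cl1* (-0.0021) and *Cxcl2* (0.19) in set 1, *Ccl7* (0.0028), *Cx3cl1* (-0.11) and *Cxcr6* (-0.13) in set 2, *Ccl2* (0.55) and *Cxcr6* (-0.23) in set 3, *Cx3cr1* (0.089) with the covariate, and, with a mouse left out, *Cxcr6* (from -0.00099 to 0.16), *Cx3cl1* (from -0.0020 to 0.044) and *Ccl2* (from -0.15 to 0.014). The causes were not tested. Of these only *Ccl5* was called over all libraries. Of the other 19 members, 13 changed the sign of their treatment value in at least 1 alternative, among them *Cxcl1*, *Cxcl9*, *Cxcl10*, *Cxcl11* and *Cxcl13*, with values from -0.53 (*Cxcl11*, set 2) to 0.81 (*Cxcl13*, set 2) where the sign was changed. In PBS mice 1 ligand and receptor pair passed, against 4 with values centred within sets and 2 with a pseudocount of 0.1. The permutations of centred values ignored the sets, so that count of 4 may be too high. Centring turned the r of *Ccl2* and *Ccr2* in PBS mice to -0.0066 and that of *Cxcl16* and *Cxcr6* in RGLS4326 mice to -0.054. Same-numbered mice did not deviate together throughout, so the numbers were not taken as pairs. Correlations between PBS and RGLS4326 mice ran from -0.21 to 0.41 (median 0.058, with 5 of 11 pairs over 0.1). Library set and number were not separated in that check. A fit with the replicate number as a block and without UNT mouse 12, which has no counterpart, gave 40 higher and 4 lower genes with disease and 1 higher and 10 lower with treatment, all among the 15.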
